A study of Mus musculus with 8 samples.

Results

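Transcripts of 7 globin genes were examined in cells of the embryonic mouse forelimb. The genes were taken by symbol, 7 of the 28001 features of the count tables, and comprise 3 embryonic genes (*Hbb-y*, *Hbb-bh1* and *Hba-x*) and 4 adult genes (*Hbb-bs*, *Hbb-bt*, *Hba-a1* and *Hba-a2*). Every deposited barcode was counted, and the values are given for cells with at least 3000 unique molecular identifiers (UMIs, 1 per captured transcript) and at most 10% of UMIs from mitochondrial genes, which kept 53085 of 57469 barcodes.

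The study followed mesenchymal progenitors with 10x Genomics 3′ single-cell RNA-seq of forelimbs, in 8 libraries of C57BL/6J embryos. Sorted tdTomato+ cells made up 6 libraries, 1 each at E11.5, E12.5, E13.5 and E14.5 and 2 at E16.5 (a proximal segment around the elbow and a distal segment with the autopod), and dissociated E11.5 forelimbs that held tdTomato+ and tdTomato- cells made up 2 (whole 1 and whole 2). The embryos of the sorted libraries were Hic1 CreERT2/CreERT2;Rosa26 LSLtdTomato/tdTomato, and dams received tamoxifen (7.5 mg) on embryonic day 10, and the reporter marks cells in which *Hic1* was active then and their descendants. The labels of the whole limb libraries name *Hic1* and tdTomato and the same tamoxifen dose, without spelling out the alleles. According to the methods, litters were pooled and cells bearing Ter119 (a surface protein of the red cell lineage), CD45, CD117, CD31, CD11b or F4/80 were gated out, which is a gate against red cells. Each sorted group is 1 library, and no test between stages was made. The methods also give the v2 reagent kit for the libraries up to E13.5 and the v3 kit for E14.5 and E16.5. They also give an enzyme change in tissue digestion after E12.5. Stage, kit and digestion therefore cannot be told apart between E11.5 and E16.5. E14.5 and E16.5 share both kit and enzymes, but only at E16.5 were the forelimbs divided into segments. The cells of a library summed to between 31500092 UMIs (E11.5) and 234893903 UMIs (E16.5 proximal), with a median per cell between 6788 (E13.5) and 18473 (E16.5 proximal), and any 2 libraries shared at most 54 cell barcodes.

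Haemoglobin is a tetramer of alpha-type and beta-type chains, each of which holds a haem group. In the mouse, primitive red cells that arise in the yolk sac make the embryonic chains, from *Hba-x* (zeta) in the alpha cluster and from *Hbb-y* (epsilon y) and *Hbb-bh1* (beta h1) in the beta cluster, and also the adult alpha chains. Definitive red cells, which are made in the foetal liver and later in the bone marrow, make the adult chains from *Hba-a1* and *Hba-a2* and from *Hbb-bs* and *Hbb-bt*. Red cells hold so much globin mRNA that broken ones release it into a cell suspension, where droplets take it up as free RNA.

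In each cluster the embryonic genes lie upstream of the adult ones. The 4 beta-type genes lie on the minus strand of chromosome 7 (GRCm38, GENCODE vM21) in the order *Hbb-y* (chr7:103851749-103853216), *Hbb-bh1* (chr7:103841637-103843164), *Hbb-bs* (chr7:103826534-103828096) and *Hbb-bt* (chr7:103812524-103813996). The 3 alpha-type genes lie on the plus strand of chromosome 11 in the order *Hba-x* (chr11:32276400-32278116), *Hba-a1* (chr11:32283511-32284465) and *Hba-a2* (chr11:32296489-32297298). Each of the 7 is annotated with 3 exons. The adult pairs are close copies. Of all 50-base windows in the last 300 bases of the transcripts, 80.1% of those of *Hba-a1* recur in *Hba-a2*, and 36.7% of those of *Hbb-bs* recur in *Hbb-bt*. Reads that fit both copies carry no information on which gene they came from, so the split within each adult pair is less certain than their sum.

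Promoter windows of embryonic and adult genes are shown because the members moved in these groups. Each window runs from 250 bases before to 50 bases after the transcription start (RefSeq, GRCm38.p6), and 6 of the 7 genes matched an entry, *Hbb-bh1* being the gene without one. Capitals mark CACCC (or GGGTG on the other strand), GATAA (or TTATC) and CCAAT (or ATTGG), letters found in the binding sites of KLF1, GATA1 and CCAAT-box factors. The windows are chr7:103853158-103853457 (minus strand) for *Hbb-y*, chr11:32276350-32276649 (plus) for *Hba-x*, chr7:103827879-103828178 (minus) for *Hbb-bs* and chr11:32283422-32283721 (plus) for *Hba-a1*.
Hbb-y: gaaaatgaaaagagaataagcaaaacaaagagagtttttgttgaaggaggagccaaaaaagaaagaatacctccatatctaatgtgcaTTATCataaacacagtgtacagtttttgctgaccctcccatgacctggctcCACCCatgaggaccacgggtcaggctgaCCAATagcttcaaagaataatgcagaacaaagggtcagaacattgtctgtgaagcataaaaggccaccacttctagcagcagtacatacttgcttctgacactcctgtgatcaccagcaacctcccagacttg
Hba-x: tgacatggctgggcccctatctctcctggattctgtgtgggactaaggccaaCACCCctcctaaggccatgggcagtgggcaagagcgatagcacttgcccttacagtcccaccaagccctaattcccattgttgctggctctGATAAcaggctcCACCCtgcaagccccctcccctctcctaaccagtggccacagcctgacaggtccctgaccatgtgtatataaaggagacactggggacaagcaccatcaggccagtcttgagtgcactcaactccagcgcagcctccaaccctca
Hbb-bs: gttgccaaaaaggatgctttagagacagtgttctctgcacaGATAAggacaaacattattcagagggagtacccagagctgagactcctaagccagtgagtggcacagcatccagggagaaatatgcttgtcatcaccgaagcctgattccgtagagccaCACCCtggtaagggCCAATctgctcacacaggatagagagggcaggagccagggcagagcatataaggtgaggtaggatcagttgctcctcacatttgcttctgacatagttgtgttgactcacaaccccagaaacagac
Hba-a1: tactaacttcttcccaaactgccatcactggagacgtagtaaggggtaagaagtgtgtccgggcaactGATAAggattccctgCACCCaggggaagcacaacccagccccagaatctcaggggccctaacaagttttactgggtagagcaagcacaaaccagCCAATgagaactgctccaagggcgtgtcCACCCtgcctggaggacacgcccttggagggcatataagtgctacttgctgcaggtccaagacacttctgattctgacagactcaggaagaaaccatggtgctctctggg
The window of *Hba-a2* shares a run of 297 identical bases with that of *Hba-a1*. Among the 6 windows, each held CACCC and GATAA at least once, and 5 held CCAAT, the exception being *Hba-x*. The matches of different motifs did not overlap. Of all 32851 windows of this length, 57.5% held CACCC, 25.4% held GATAA and 37.4% held CCAAT on either strand. The presence of CACCC and GATAA did not differ between the embryonic and the adult windows.

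The globin transcripts of the E11.5 whole limb were mostly embryonic, and those of the E16.5 sorted libraries were almost entirely adult. In whole 1, 14461 of 16737 globin UMIs were embryonic, a share of 86.4% (exact binomial 95% interval 85.9 to 86.9). In whole 2, 12395 of 13970 were embryonic, 88.7% (88.2 to 89.3). At E16.5, 6 of 21920 globin UMIs were embryonic in the proximal library (0.0274%, 0.0101 to 0.0596) and 2 of 11853 in the distal library (0.0169%, 0.00204 to 0.0609). The whole limb shares rest on 2 cells in each library that held most of these UMIs. The E16.5 shares rest likewise on 2 proximal cells and 1 distal cell. Among cells with under 10 globin UMIs the embryonic share was 1.49% (0.547 to 3.20) of 404 UMIs in the proximal and 1.01% (0.122 to 3.58) of 199 in the distal library, and without *Alas2*-positive cells it was 1.18% and 0.514%. All intervals cover counting error only.

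In the sorted libraries before E14.5 globin UMIs were too few for a firm share. All 5 globin UMIs at E11.5 were embryonic, 4 of 10 at E12.5 and 1 of 7 at E13.5. The intervals were 47.8% to 100%, 12.2% to 73.8% and 0.361% to 57.9%, so neighbouring stages were not separated by it. At E14.5, 20 of 106 globin UMIs were embryonic, 18.9% (11.9 to 27.6), above both E16.5 libraries and below both whole limb libraries.

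**Figure D1:**
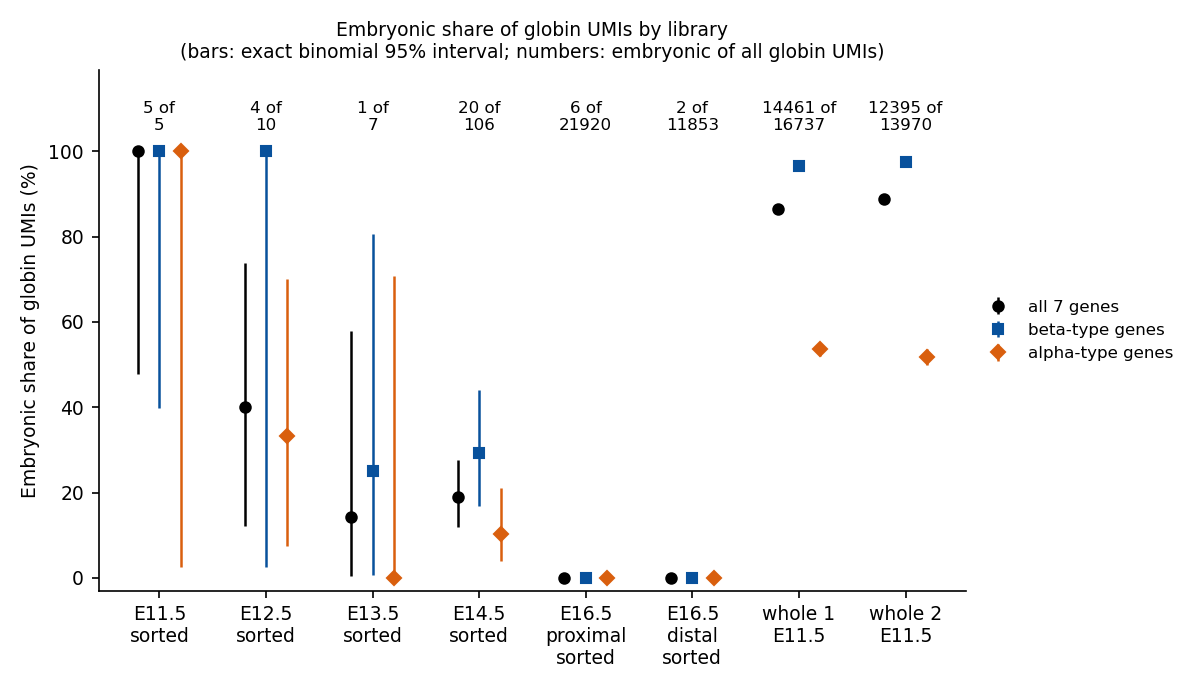
Embryonic share of globin UMIs (%, vertical axis) in the cells of each library (horizontal axis), for all 7 genes, the 4 beta-type genes and the 3 alpha-type genes, with exact binomial 95% intervals and the UMIs behind each share. Both whole limb libraries sit at 86.4% and 88.7% over all genes with the alpha-type share far below the beta-type share, and both E16.5 libraries sit at the axis.

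The 2 gene clusters were not at the same point at E11.5. Of the beta-type UMIs of the whole limb, 96.5% (96.2 to 96.8) were embryonic in whole 1 and 97.4% (97.1 to 97.7) in whole 2. Of the alpha-type UMIs, 53.6% (52.0 to 55.2) came from *Hba-x* in whole 1 and 51.8% (49.9 to 53.7) in whole 2, the others from *Hba-a1* and *Hba-a2*. The intervals of the alpha-type and beta-type shares do not overlap in either library. They do not cover the spread between cells, and 2 cells held most of these UMIs in each library. At E14.5 the order was the same, with 29.2% (17.0 to 44.1) of beta-type and 10.3% (3.89 to 21.2) of alpha-type UMIs embryonic, and there the intervals overlap. Alpha-type UMIs made up 23.6% of all globin UMIs in whole 1, 19.0% in whole 2, 23.7% in the E16.5 proximal and 32.1% in the E16.5 distal library.

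*Hbb-y*, the most abundant embryonic beta-type gene, had 9022 UMIs in whole 1 and 8138 in whole 2. In the sorted libraries, taken here and for the other genes in order of stage with the proximal before the distal segment, it had 3, 1, 1, 14, 3 and 0 UMIs. Scaled to library depth (UMIs of the gene over all UMIs of the library, in CPM units), this was 176 CPM in whole 1 and 159 CPM in whole 2, and between 0 and 0.104 CPM in the sorted libraries. No sorted library came near the whole limb, and the counting intervals of the sorted libraries up to E14.5 overlap each other.

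*Hbb-bh1*, the second embryonic beta-type gene, had 3326 UMIs in whole 1, 2881 in whole 2 and 1 in the E11.5 sorted library, and 0 UMIs in each of the other 5 libraries, including E14.5 and both segments at E16.5. The whole limb levels were 64.8 and 56.2 CPM. At the E14.5 depth, 0 UMIs allows a level of up to 0.0224 CPM (3 UMIs). It was the globin gene listed at 0 in the most libraries. In the whole limb it gave 26.9% (26.2 to 27.7) of embryonic beta-type UMIs in whole 1 and 26.2% (25.3 to 27.0) in whole 2, whereas at E14.5 it gave 0 of 14 (0 to 23.2).

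*Hba-x*, the embryonic alpha-type gene, had 2113 UMIs in whole 1 (41.2 CPM) and 1376 in whole 2 (26.8 CPM), and 1, 3, 0, 6, 3 and 2 in the sorted libraries. Its highest level in a sorted library was 0.0678 CPM, at E12.5, and the intervals of all sorted libraries overlap. Among the embryonic genes it differed most between the whole limb libraries.

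*Hbb-bs*, an adult beta-type gene, had 14 UMIs in whole 1 and 70 in whole 2, and 0, 0, 1, 26, 12022 and 6153 in the sorted libraries. The E16.5 levels were 51.2 and 38.6 CPM, against 0.194 CPM at E14.5 and 0.273 and 1.36 CPM in the whole limb. *Hbb-bt*, its neighbour, had 433 UMIs in whole 1 (8.44 CPM) and 226 in whole 2 (4.41 CPM), and 0, 0, 2, 8, 4700 (20.01 CPM) and 1901 (11.9 CPM) in the sorted libraries. The order within this pair differed between whole limb and E16.5. *Hbb-bs* gave 71.9% (71.2 to 72.6) of adult beta-type UMIs in the proximal and 76.4% (75.5 to 77.3) in the distal library, and 3.13% (1.72 to 5.20) in whole 1 and 23.6% (18.9 to 28.9) in whole 2.

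*Hba-a1*, an adult alpha-type gene, had 1231 UMIs in whole 1 (23.99 CPM) and 829 in whole 2 (16.2 CPM), and 0, 3, 1, 22, 2878 (12.3 CPM) and 2268 (14.2 CPM) in the sorted libraries. *Hba-a2*, its close copy, had 598 UMIs in whole 1 (11.7 CPM) and 450 in whole 2 (8.77 CPM), and 0, 3, 2, 30, 2314 (9.85 CPM) and 1529 (9.60 CPM) in the sorted libraries. Both adult alpha-type genes thus stood above 8 CPM in the whole limb as well as at E16.5, and *Hba-a2* did not differ between the E16.5 segments beyond counting error (distal over proximal 0.974, 0.913 to 1.04). Without the cells that held 100 or more globin UMIs the *Hba-a2* ratio was 2.98 (2.14 to 4.19), from 111 and 55 UMIs. Of the 111 distal UMIs, 54 lay in 11 cells, a spread that the interval does not cover. The segments also differ in Cell Ranger version (3.0.2 proximal, 6.0.1 distal), so segment and version cannot be told apart.

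**Figure D2:**
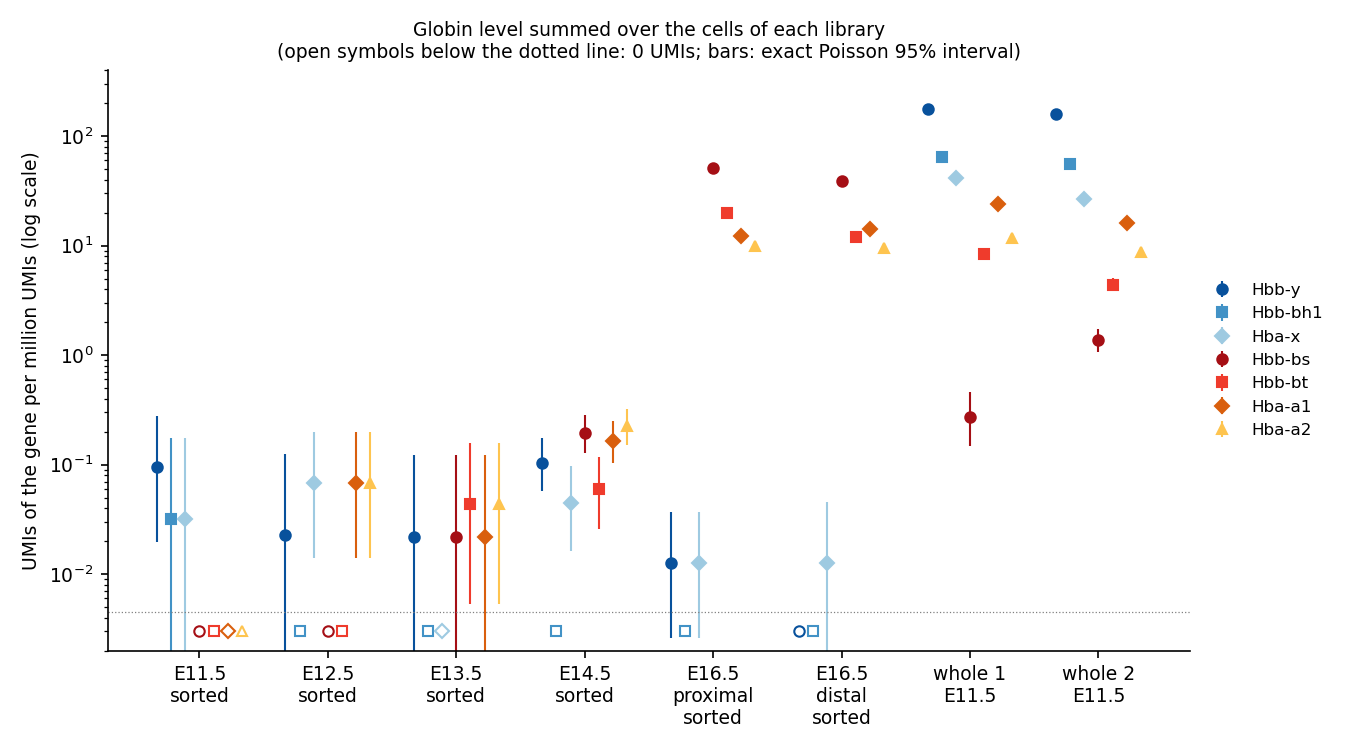
Level of each globin gene in CPM (vertical axis, log scale) in the cells of each library (horizontal axis), with exact Poisson 95% intervals; open symbols mark 0 UMIs. The 3 embryonic genes stand above 20 CPM in whole 1 and whole 2 and under 1 CPM in the sorted libraries, and the adult genes at 9 CPM or more at E16.5.

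From E11.5 to E16.5 proximal the 4 adult genes were higher, by at least 537-fold for *Hbb-bs*, 210-fold for *Hbb-bt*, 129-fold for *Hba-a1* and 103-fold for *Hba-a2*, each against a floor of 3 UMIs over the E11.5 library. Of 10903 genes with at least 5 CPM in either library, 8.42% were at least 4-fold higher at E16.5 proximal (no test, 1 library each), and 6.78% were at least 4-fold lower. The 4 adult globin genes reached 5 CPM at E16.5 and had 0 UMIs at E11.5, so the minimum itself placed them among the higher genes and nothing is read from their count. The embryonic sum was 0.159 CPM at E11.5 and 0.0255 CPM in the proximal library, and their ratio of 0.161 (0.0409 to 0.667) rests on 5 and 6 UMIs. Between the E16.5 segments, 0.821% of 10352 genes were at least 4-fold higher and 2.52% at least 4-fold lower in the distal library, and none of the 4 adult globin genes was. The segment ratios turned with the 3 globin-rich cells. Distal over proximal, *Hbb-bs* was 0.755 (0.732 to 0.778) with them and 1.37 (1.11 to 1.68) without them, *Hbb-bt* 0.596 (0.565 to 0.629) and 1.42 (0.956 to 2.11), *Hba-a1* 1.16 (1.10 to 1.23) and 0.805 (0.630 to 1.02), and the adult sum 0.798 (0.780 to 0.816) and 1.33 (1.17 to 1.51). The folds between stages rest on very few cells. Without the 2 proximal cells that held 100 or more globin UMIs the bounds were 8.76-fold for *Hbb-bs* and *Hba-a1* and 2.46-fold for *Hbb-bt* and *Hba-a2*, and no globin gene reached 5 CPM. Of the 196 proximal *Hba-a1* UMIs then left, 95 lay in 364 cells with at least 10 UMIs of *Lor*, a gene of the epidermis.

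Between E14.5 and E16.5, which share kit and digestion, the adult genes were also higher at the later stage. Only at E16.5 were the forelimbs divided, so stage and segment cannot be told apart in this comparison. E16.5 proximal over E14.5, the adult sum was 145-fold higher (118 to 182), and without the 2 globin-rich cells 3.33-fold (2.65 to 4.24). Without those cells *Hbb-bs* was 4.30-fold (2.85 to 6.75), *Hbb-bt* 3.92-fold (1.86 to 9.54) and *Hba-a1* 5.08-fold (3.26 to 8.30) higher. Of the 196 proximal UMIs behind the *Hba-a1* ratio, 95 lay in the 364 *Lor* cells. In cells with under 10 *Lor* and under 10 globin UMIs, *Hba-a1* stood at 0.389 CPM (0.310 to 0.481) in the proximal library. At E14.5 it stood at 0.157 CPM (0.0971 to 0.240) in such cells, and these intervals do not overlap. Without the 2 globin-rich cells the *Hba-a2* ratio was 1.05 (0.659 to 1.69) in the proximal segment. In the distal library without its globin-rich cell, *Hba-a2* stood at 0.697 CPM (0.573 to 0.839), against 0.224 CPM (0.151 to 0.320) at E14.5. In cells with under 10 globin UMIs these intervals overlapped (distal 0.272 to 0.464, E14.5 0.133 to 0.293). The distal library also differs from E14.5 in Cell Ranger version. As the split between *Hba-a1* and *Hba-a2* is uncertain, no lack of change is read for *Hba-a2*. The embryonic sum of E16.5 proximal over E14.5 had a ratio of 0.171 (0.0562 to 0.442), from 6 and 20 UMIs.

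Nearly all globin UMIs of the rich libraries sat in 7 cells. Cells with 100 or more globin UMIs numbered 2 in the proximal and 1 in the distal library, 2 in whole 1 and 2 in whole 2, and held 97.7%, 96.2%, 97.7% and 96.5% of the globin UMIs of their libraries. The sorted libraries from E11.5 to E14.5 held no such cell, and the highest cell there had 14 globin UMIs. Of the cells with any globin UMI, 316 of 331 in whole 1 and 290 of 308 in whole 2 had exactly 1.

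**Figure D3:**
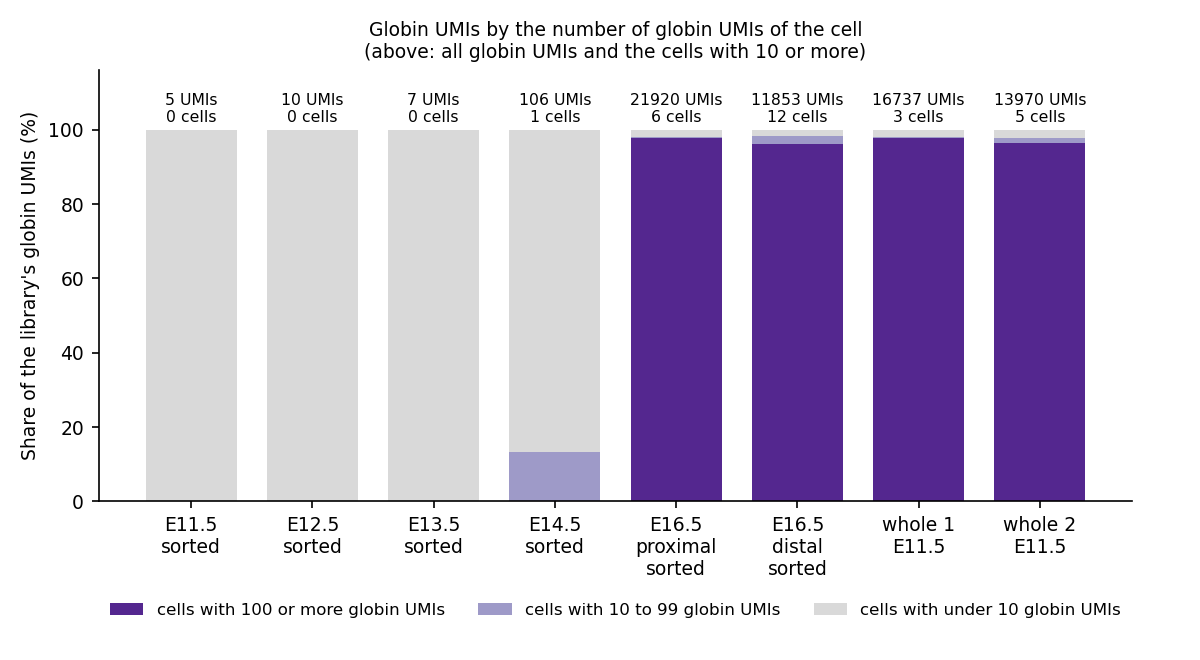
Share of the globin UMIs of each library (%, vertical axis) that lay in cells with 100 or more, 10 to 99 and under 10 globin UMIs. In whole 1, whole 2 and both E16.5 libraries 96.2% to 97.7% lay in 1 or 2 cells, and at E11.5, E12.5 and E13.5 all of them lay in cells with under 10.

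The 4 globin-rich whole limb cells were broadly alike in composition, though the embryonic share and the *Hbb-bh1* share differed between cells beyond counting error. Their globin UMIs numbered 10196 and 6160 in whole 1 and 7600 and 5882 in whole 2, which was 40.0%, 22.9%, 53.0% and 54.9% of all UMIs of the cell. The embryonic share was 87.1%, 85.5%, 88.7% and 89.7%. *Hba-x* gave 55.4%, 51.4%, 48.0% and 56.4% of the alpha-type UMIs, and *Hbb-bh1* gave 29.1%, 23.4%, 24.3% and 27.2% of the embryonic beta-type UMIs. Embryonic and adult alpha-type transcripts were thus found together in each of the 4 droplets.

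Among the shares given, that of *Hbb-bs* in adult beta-type transcripts varied most between these 4 cells. *Hbb-bs* and *Hbb-bt* had 6 and 244 UMIs in the first and 3 and 181 in the second cell of whole 1, and 13 and 117 in the second cell of whole 2, so *Hbb-bs* gave 2.40%, 1.63% and 10.0% of them. In the first cell of whole 2 the order was the other way, with 50 *Hbb-bs* and 24 *Hbb-bt* UMIs (67.6%, 55.7 to 78.0). That cell held 50 of the 70 *Hbb-bs* UMIs of whole 2.

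Red cell genes other than the globins were present in the 4 whole limb cells. Of 8 measured erythroid marker genes other than *Alas2*, 7 had a UMI in each of the 4 cells, and *Alas2*, which encodes the first enzyme of haem synthesis in red cells, had 14, 21, 12 and 13 UMIs. None of the 4 had a tdTomato UMI. Mesenchymal markers were at 0 of 6 in 3 cells and at 5 of 6 in the second cell of whole 1. No doublet caller was run, and whether that droplet held 2 cells was not tested.

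The 3 globin-rich E16.5 cells were different in content. They held 11576 and 9836 globin UMIs in the proximal and 11398 in the distal library (33.2%, 40.8% and 37.6% of the UMIs of the cell), of which 0 were embryonic, and *Alas2* had 7, 21 and 17 UMIs. *Hbb-bs* gave 71.5%, 72.2% and 76.4% of adult beta-type UMIs. Erythroid markers other than *Alas2* were at 0, 1 and 1 of 8, with *Klf1* and *Gata1*, regulators of red cell genes, at 0 in all 3. Mesenchymal markers were at 3, 4 and 6 of 6, and tdTomato had 65, 21 and 33 UMIs. These cells had 34881, 24109 and 30296 UMIs, against library medians of 18473 and 17275. Globin and mesenchymal transcripts were thus found in the same droplets, and whether these held more than 1 cell was not tested.

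**Figure D4:**
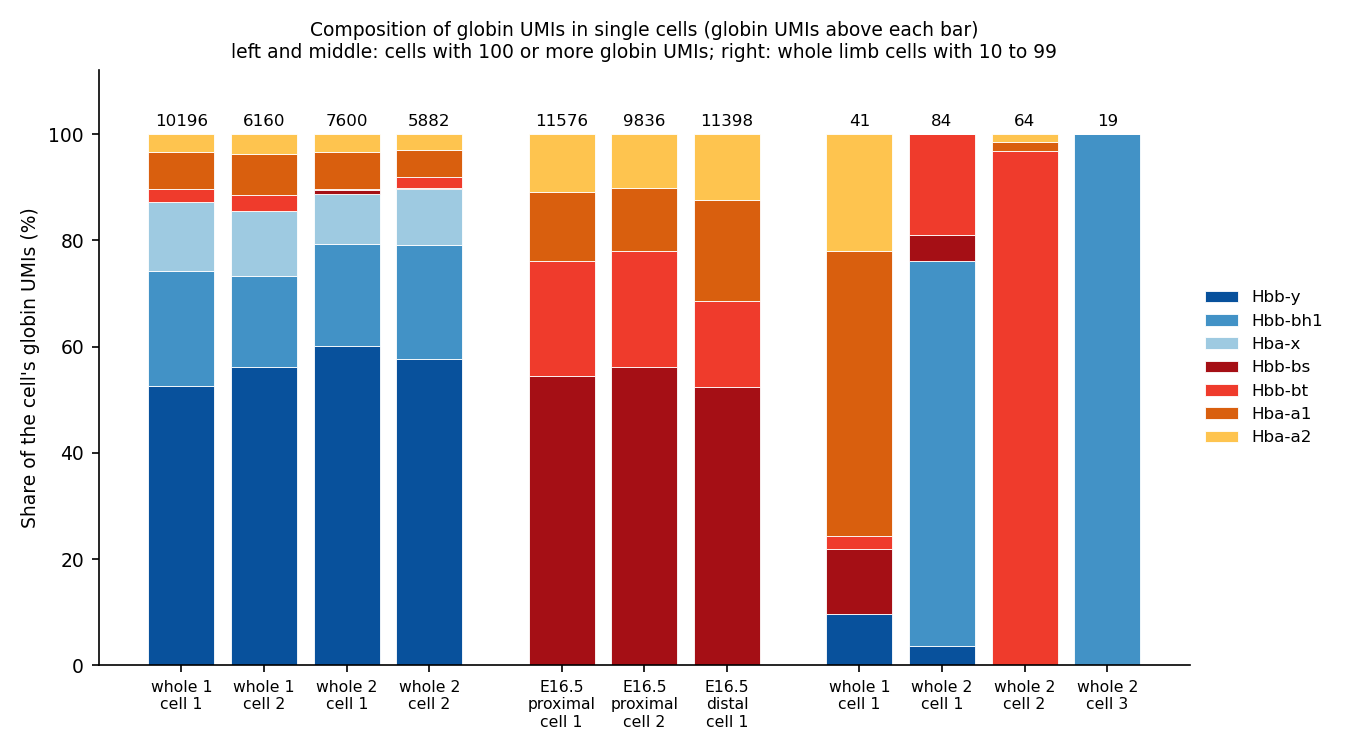
Share of each globin gene among the globin UMIs of a cell (%, vertical axis) for the 7 cells with 100 or more globin UMIs and the 4 whole limb cells with 10 to 99, with the number of globin UMIs above each bar. The 4 rich whole limb cells have similar, mostly embryonic compositions. The 3 rich E16.5 cells hold adult genes alone, and the 4 others are led by *Hba-a1*, *Hbb-bh1*, *Hbb-bt* and *Hbb-bh1*.

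The choice of red cells by *Alas2* gave these same cells. With at least 1 *Alas2* UMI, 2 cells of whole 1 and 9 of whole 2 were positive, and the embryonic share was 86.5% and 89.2% (mean 87.8% ± 1.86, SD, n = 2 libraries). By cluster, the mean was 97.3% for beta-type and 52.7% for alpha-type genes. With at least 2 *Alas2* UMIs, 2 cells remained in each library and the shares were as before, since the other 7 *Alas2*-positive cells of whole 2 had no globin UMI. In the sorted libraries *Alas2*-positive cells with and without globin were found. The single *Alas2*-positive cell at each of E11.5, E12.5, E13.5 and E14.5 had 0 globin UMIs, 2 of 4 such cells in the E16.5 proximal library were the globin-rich ones and held 97.7% of its globin UMIs, and of 16 in the distal library 1 was globin-rich and 1 other had 66 globin UMIs.

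Genes that accompanied the globins in *Alas2*-positive cells of both whole limb libraries were put in order of CPM + 10 over that of *Alas2*-negative cells, taking the lower of the 2 libraries, among 453 genes with at least 200 CPM. *Car2* (carbonic anhydrase 2, abundant in red cells) led with 245-fold in whole 1 and 84.8-fold in whole 2. The metallothionein genes *Mt2* (190-fold and 52.2-fold) and *Mt1* (191-fold and 42.4-fold) followed, then *Alas2* itself. *Hemgn*, which encodes a nuclear protein of blood precursors, stood at 50.5-fold and 26.2-fold. Lower in the order came *Mgst3*, *Cpox* (a haem synthesis enzyme, 15.1-fold and 6.35-fold), *Fth1* (ferritin heavy chain, 13.9-fold and 4.90-fold), *Nudt4*, *Prr13*, *Bpgm* (which makes the ligand that lowers the oxygen affinity of haemoglobin, 4.83-fold and 3.79-fold), *Gpx1*, *Tmem14c* and *Glrx5*. For each of these 15 genes the ratio was lower in whole 2, whose 9 positive cells include the 7 without globin. On the same scale *Hbb-y* stood at 12090-fold and 6497-fold, and *Hbb-bs*, higher in whole 2, at 18.0-fold and 70.1-fold.

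The other genes of the red cell programme were counted in the globin-rich cells, as genes with at least 3 UMIs and at least 4-fold the level of cells with under 10 globin UMIs. Over all genes, 0.781% met this in whole 1, 0.533% in whole 2, 0.493% in the proximal and 0.188% in the distal E16.5 library. Of 12 genes of haem synthesis and its mitochondrial import, 9 met it in whole 1 and 8 in whole 2, but 3 in the proximal and 2 in the distal library. The enzymes *Urod*, *Alad* and *Cpox* were higher in the globin-rich cells of both whole limb libraries. *Urod* had 363 against 40.1 CPM in whole 1 and 399 against 37.8 CPM in whole 2, *Alad* 516 against 33.9 and 399 against 27.5 CPM, and *Cpox* 516 against 24.9 and 758 against 24.8 CPM. At E16.5 these 3 enzymes had 4 UMIs in the 2 proximal cells and 0 in the distal cell.

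Of 11 measured genes of iron uptake and redox control, 6 and 7 met it in the whole limb and 3 and 3 at E16.5 proximal and distal. *Blvrb* (biliverdin reductase B) had 783 and 678 CPM in the rich whole limb cells against 11.2 and 9.87 CPM, and 153 and 264 CPM in the rich E16.5 cells against 71.8 and 80.4 CPM. *Prdx2* (peroxiredoxin 2) had 2579 and 2434 CPM against 964 and 950 CPM in the whole limb. Of 12 membrane and membrane skeleton genes, 9 and 4 met it in the whole limb and 0 at E16.5. Of 12 transcription factors and receptors of the lineage, 5 and 3 met it in the whole limb, 0 in the proximal and 1 in the distal library, *Sox6* with 3 UMIs. *Bcl11a* and *Sox6*, known repressors of embryonic beta-type globin, had 2 and 0 UMIs in the rich cells of whole 1, 0 and 0 in those of whole 2, 0 and 0 in the proximal and 2 and 3 in the distal library, so the values for both rest on 3 UMIs or fewer.

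Of the other globin family genes, *Hbq1b*, a theta-type globin gene of the alpha cluster, was found in the globin-rich whole limb cells. It had 7 UMIs there in whole 1 (134 CPM) and 3 in whole 2 (120 CPM), against 0 and 0.0195 CPM in cells with under 10 globin UMIs, and 0 UMIs in the globin-rich E16.5 cells. *Cygb* (cytoglobin, made in fibroblasts), the most abundant of these genes, had 0 UMIs in the rich whole limb cells and in the rich distal cell and 8 in the rich proximal cells.

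Cells with 10 to 99 globin UMIs were of a different kind in the whole limb. There were 1 in whole 1 and 3 in whole 2, and each had 4 or 5 of 5 megakaryocyte marker genes, 2 or 3 of 8 erythroid markers, 2 or 3 of 7 endothelial markers, 1 or 2 of 8 immune markers, no *Alas2* UMI and 0 or 1 of 6 mesenchymal markers. Megakaryocytes are the precursors of platelets and share a progenitor with red cells. Each was led by 1 or 2 globin genes rather than by the set found in the red cells. The whole 1 cell had 22 *Hba-a1*, 9 *Hba-a2*, 5 *Hbb-bs*, 4 *Hbb-y* and 1 *Hbb-bt* UMI. In whole 2, the first had 61 *Hbb-bh1*, 16 *Hbb-bt*, 4 *Hbb-bs* and 3 *Hbb-y* UMIs, the second 62 *Hbb-bt* and 1 UMI each of *Hba-a1* and *Hba-a2*, and the third 19 *Hbb-bh1* UMIs and no other. *Hbb-y*, which led in every globin-rich cell of the whole limb, gave at most 4 UMIs in any of them. A barcode of 2288 UMIs in whole 2, below the UMI minimum, had 40 *Hba-a1* UMIs, 1 *Hba-a2* UMI and 1 of 5 megakaryocyte markers.

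At E16.5 the cells with 10 to 99 globin UMIs numbered 4 in the proximal and 11 in the distal library, all with at least 3 of 6 mesenchymal markers and at least 6 tdTomato UMIs. Their 104 and 256 globin UMIs were all adult. *Hbb-bs* gave 81.7% and 75.3% of their adult beta-type UMIs, near the share in the globin-rich cells of the same stage. An exception in the distal library had 14 *Hba-a2* UMIs and none of the other 6 genes. At E14.5 the single cell of this kind had 4 *Hbb-y*, 3 *Hbb-bs*, 3 *Hbb-bt*, 1 *Hba-a1* and 3 *Hba-a2* UMIs, together with 4 of 6 mesenchymal markers.

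In whole limb cells with under 10 globin UMIs, a low level spread over many cells, most globin UMIs were embryonic too. They summed to 198 *Hbb-y*, 66 *Hbb-bh1*, 43 *Hba-x*, 0 *Hbb-bs*, 7 *Hbb-bt*, 13 *Hba-a1* and 13 *Hba-a2* UMIs in 5461 cells of whole 1 and to 182, 76, 35, 3, 7, 6 and 12 in 5677 cells of whole 2. The embryonic share was 90.3% (86.6 to 93.2) and 91.3% (87.6 to 94.1), against 86.5% (86.0 to 87.0) and 89.2% (88.6 to 89.7) in the rich cells. The intervals of this share overlap in both libraries. Those of *Hba-a1* do not, since it gave 3.82% (2.05 to 6.45) and 1.87% (0.689 to 4.02) of globin UMIs, against 7.31% (6.92 to 7.72) and 6.10% (5.70 to 6.51) in the rich cells. *Hbb-bh1* gave 25.0% and 29.5% of embryonic beta-type UMIs, against 27.0% and 25.5% in the rich cells.

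This level was compared between the 3 largest marker classes of the whole limb, which can share cells. In whole 1 it was 6.58 CPM in mesenchymal cells (at least 2 marker genes with a UMI), 6.36 CPM in epithelial cells (1.73 to 16.3) and 3.72 CPM in myogenic cells (1.98 to 6.36). In whole 2 it was 6.18, 5.19 (1.07 to 15.2) and 5.86 CPM (3.41 to 9.38). After thinning each cell to 3000 UMIs, a globin UMI was found in 1.98% of mesenchymal, 1.49% of epithelial and 1.47% of myogenic cells of whole 1 (median depth 8907, 8826 and 12712 UMIs before thinning), and in 1.82%, 3.33% and 1.69% of whole 2 (8652, 8852 and 12035 UMIs). The level in mesenchymal cells was within the interval of the epithelial cells in both libraries and of the myogenic cells in whole 2, and above that of the myogenic cells in whole 1. In whole 2 the level was higher in the small classes, with 72.5 CPM (29.2 to 149) in 6 cells with megakaryocyte markers, 86.5 CPM (34.8 to 178) in 5 with immune markers and 23.3 CPM (10.1 to 45.9) in 31 with endothelial markers, from 7, 7 and 8 globin UMIs. In whole 1 these classes had 0, 0 and 1 globin UMIs in 4, 4 and 26 cells.

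The share of cells with a globin UMI was higher at E16.5 than at the earlier sorted stages and highest in the whole limb. Thinned to 3000 UMIs it was 0.0948% (0.0196 to 0.277), 0.106% (0.0345 to 0.247), 0.0327% (0.00396 to 0.118), 0.191% (0.109 to 0.310), 0.477% (0.358 to 0.624) and 0.580% (0.430 to 0.766) in the sorted libraries in order of stage, against 2.09% (1.72 to 2.50) and 1.87% (1.53 to 2.25) in whole 1 and whole 2. Without thinning it was 0.158%, 0.148%, 0.0980%, 0.764%, 2.99%, 1.93%, 6.06% and 5.42% in the same order. The thinned intervals of E11.5 to E14.5 overlap between neighbours, as do those of both E16.5 segments and of both whole limb libraries. Without thinning the intervals of E13.5 (0.0360 to 0.213) and E14.5 (0.589 to 0.974) do not overlap, and the proximal share (2.68 to 3.32) was above the distal one (1.65 to 2.25), the other order from the thinned shares.

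In the E16.5 cells with under 10 globin UMIs the composition was not that of the rich cells. Alpha-type genes gave 57.4% (52.4 to 62.3) of globin UMIs in the proximal and 61.3% (54.2 to 68.1) in the distal library, against 23.1% (22.5 to 23.7) and 31.4% (30.6 to 32.3) in the rich cells. The proximal cells summed to 129 *Hbb-bs*, 40 *Hbb-bt*, 179 *Hba-a1* and 50 *Hba-a2* UMIs, and the distal ones to 63, 14, 63 and 57.

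In the proximal library *Hba-a1* stood apart in cells that carried *Lor*, the gene of loricrin, a protein of the cornified layer of the epidermis. This split was chosen after the values were seen, and no test was made on it. The 364 cells with at least 10 *Lor* UMIs had 95 *Hba-a1*, 9 *Hba-a2*, 4 *Hbb-bs* and 0 *Hbb-bt* UMIs, and the 10739 other cells had 84, 41, 125 and 40. *Hba-a1* stood at 5.13 CPM (4.15 to 6.27) in the *Lor* cells and at 0.389 CPM in the others, a ratio of 13.2 (9.74 to 17.9). *Hba-a2* was also higher in the *Lor* cells, with a ratio of 2.563 (1.095 to 5.355) from 9 and 41 UMIs. The adult beta-type genes went the other way, with 0.216 against 0.763 CPM (ratio 0.283, 0.0762 to 0.739). *Hba-a1* gave 88.0% (80.3 to 93.4) of globin UMIs in the *Lor* cells and 28.4% (23.3 to 33.9) in the others. The *Lor* cells were deep, with a median of 51486 against 18201 UMIs, and 20.1% of them against 0.689% of the others had a *Hba-a1* UMI. After thinning to 3000 UMIs this was 3 of 364 cells (0.824%) against 0.112%, a level near that of 1 UMI from which no difference is read.

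Other choices of the cells, also made after the values were seen, gave *Hba-a1* levels near that above. The first choice is a subset of the cells with at least 10 *Lor* UMIs, so it is no separate support. With at least 100 *Lor* UMIs, 219 cells had *Hba-a1* at 5.67 CPM, and with at least 10 UMIs of *Krt10*, a keratin of the upper epidermis, 624 cells had it at 4.51 CPM. The distal library held 6 cells with 10 *Lor* UMIs, in which *Hba-a1* and *Hba-a2* had 1 UMI each, too few for a level. Among the other proximal cells alpha-type genes still gave 43.2% (37.5 to 49.1) of globin UMIs. The summed level of 6 epithelial markers was 667 CPM in the proximal and 133 CPM in the distal library, and lay between 21.3 and 80.9 CPM in the other 6.

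**Figure D5:**
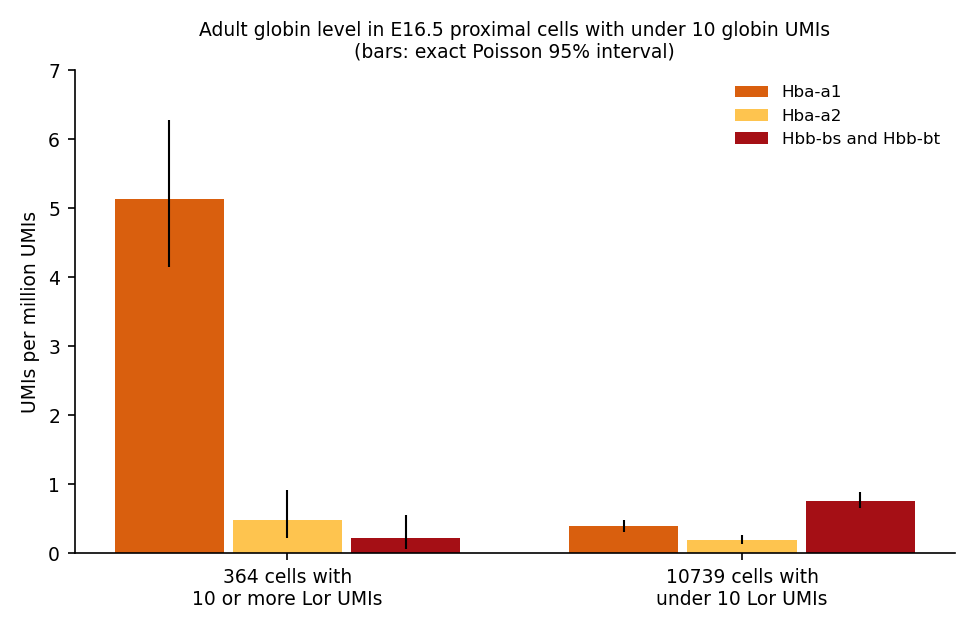
Level of adult globin genes (CPM, vertical axis) in E16.5 proximal cells with under 10 globin UMIs, split by *Lor* UMIs, with exact Poisson 95% intervals. *Hba-a1* stands at 5.13 CPM in the 364 *Lor* cells and at 0.389 CPM in the others, while the beta-type genes are lower in the *Lor* cells.

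Sorting against whole limb tissue of the same stage is the comparison with replicates on 1 side. All 7 globin genes were lower in the E11.5 sorted library than in the whole limb (edgeR quasi-likelihood test on UMIs summed over cells, 1 library against 2, Benjamini-Hochberg adjustment over 15341 genes). The least certain was *Hbb-bs* (adjusted p = 1.1e-08 by edgeR), whose call was lost without the filter on low counts (adjusted p = 0.0997 by edgeR) and which had an adjusted p of 0.0396 by DESeq2. The embryonic genes had 1 to 3 UMIs in the sorted library, so their ratios have wide counting intervals. Whole 1 and whole 2 over the sorted library were 1846 (631.5 to 8954) and 1666 (569.8 to 8079) for *Hbb-y*, 2042 (366.2 to 80670) and 1769 (317.3 to 69900) for *Hbb-bh1*, and 1297 (232.5 to 51260) and 845 (151.4 to 33400) for *Hba-x*. The adult genes had 0 UMIs in the sorted library, so their fold is a bound. Against 3 UMIs over that library, whole 1 and whole 2 were higher by at least 252-fold and 170-fold for *Hba-a1*, 122-fold and 92.1-fold for *Hba-a2*, 88.6-fold and 46.3-fold for *Hbb-bt* and 2.87-fold and 14.3-fold for *Hbb-bs*. All these folds rest on 2 globin-rich cells in each whole limb library. Without cells of 100 or more globin UMIs the bounds were 7.17-fold and 1.43-fold for *Hba-a1* and 4.51-fold and 2.66-fold for *Hba-a2*. For *Hbb-bt* they were 1.64-fold and 17.4-fold, and for *Hbb-bs* 1.02-fold and 1.43-fold. The ratios were then 41.4 and 37.9 for *Hbb-y*, 40.6 and 95.8 for *Hbb-bh1* and 26.4 and 21.5 for *Hba-x*. In the same test 26.1% of all genes were lower and 26.6% higher in the sorted library, and with 1 sorted library the test rests on the spread between whole 1 and whole 2 (1 residual degree of freedom), which may be technical, and assumes that the sorted group varies alike. Each of the 7 globin genes passed the filter on low counts only through the whole limb, so a call could only be lower. Nothing is therefore read from the number of globin genes called. In bulk sums, fewer red cells and less globin RNA per cell cannot be told apart.

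The difference was smaller without the globin-rich cells. With *Alas2*-positive cells left out, 6 of the 7 genes passed the filter on low counts and were lower in the sorted library. Each had 3 UMIs or fewer there and passed only through its whole limb counts. A call could therefore only be lower, and nothing is read from the number of genes called. *Hbb-y* then had 3 UMIs in the sorted library, 202 in whole 1 and 185 in whole 2, a log2 fold change of -5.43 (SE 0.45) by edgeR. *Hbb-bh1* had 1, 66 and 156, and *Hba-x* 1, 43 and 35. Of the 156 *Hbb-bh1* UMIs of whole 2, 80 lay in the 3 cells with megakaryocyte markers, as did 78 of its 85 *Hbb-bt* UMIs. *Hbb-bs*, with 0, 5 and 7 UMIs, did not pass the filter.

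Other genes of the red cell programme were called in both directions in this comparison, in which 26.1% of all genes were lower and 26.6% higher. Of the 12 haem synthesis genes, 4 were lower, 4 higher and 4 not called. The median log2 fold change was -0.001 for the haem synthesis genes, -0.25 for the iron and redox genes, -0.65 for the membrane genes and -0.42 for the regulators, against 0.01 for all genes. *Alas2* was lower (1 UMI against 35 and 32, log2 fold change -4.41, SE 0.92), as was *Urod* (-0.48), while *Alad* (-0.01) and *Cpox* (-0.12) were not called. Of the iron and redox genes 4 of 11 tested were lower and 2 higher, of the membrane genes 4 of 7 lower and 1 higher, and of the regulators 3 of 12 lower and 1 higher. *Pf4* and *Ppbp*, chemokines of megakaryocytes and platelets, were lower, with 6.57 against 44.8 and 52.4 CPM and 6.89 against 8.92 and 18.4 CPM. Of the 5 megakaryocyte markers 3 were lower and 1 higher, with a summed level of 20.7 CPM in the sorted library against 60.5 and 78.8 CPM. The summed level of myogenic markers (4.09 against 81.2 and 64.7 CPM) and of endothelial markers (6.73 against 17.8 and 22.1 CPM) was lower as well. That of the 6 epithelial markers was higher in the sorted library (35.9 against 23.1 and 21.3 CPM), with 4 of them lower and 2 higher. The part of these cells in the globin difference was not tested.

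Across the 8 libraries the genes whose level was most like the embryonic sum (Pearson r of log2(CPM + 1), a description over libraries that share tissue and stage) were *Ppfibp2* (0.99), *Ppat* (0.99), *Lmo2* (0.98), *Dlx2* (0.98) and *Lars* (0.98). Those most like the adult sum were *Ide* (0.97), *Diaph1* (0.96), *Golm1* (0.95), *Tspo* (0.94) and *Col18a1* (0.94). The likeness to the embryonic sum rests on the gap between whole limb and sorted libraries. *Ppfibp2*, for example, had 43.8 and 37.0 CPM in the whole limb and between 10.6 and 13.2 CPM in the sorted libraries.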

How the data were processed

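The deposited matrices are raw UMI counts, made by the authors with Cell Ranger on a modified mm10 reference. Per their headers, the version was 3.0.2 for 5 sorted libraries and 6.0.1 for the E16.5 distal library, with none named for the whole limb. Groups were taken from the labels. UMIs of cells with at least 3000 UMIs, the minimum given in the methods, and at most 10% mitochondrial UMIs, a limit set here, were summed per library, and no doublet caller was run. Shares have exact Clopper-Pearson and levels exact Poisson 95% intervals, which cover counting error only, as do floors of 3 UMIs. edgeR 4.0.16 (R 4.3.3, TMM, filterByExpr, adjusted p under 0.05) tested the E11.5 libraries. It was also run on simulated counts that gave all libraries the same spread, so that run cannot check the assumption on the sorted group. DESeq2 1.42.0 was an alternative. Other steps used Python 3.11.15, numpy 2.4.6 and scipy 1.17.1. All 7 genes were named, with at most 4 genes of each other list (highest mean level), 5 genes most like each sum among those with at least 20 CPM in a library, and 15 genes of Alas2-positive cells, some of which are not reported here. The members and lists were chosen with earlier results of these data known.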

Additional observations from a re-analysis of the deposited data

How the results depend on the processing

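Of 46 alternative values, 38 kept their direction and lay within the error of the reported value or, for a count of genes, within 1.5 times of it, and none reversed. Among these were the differences in embryonic share and embryonic level between E16.5 proximal and E11.5, and the share of E11.5 cells with a globin UMI. The E11.5 embryonic share was 100% in every alternative, from 6 globin UMIs or fewer. Only the E16.5 share could therefore move that difference. The embryonic share of E16.5 proximal itself, 0.0274%, became 1.18% without *Alas2*-positive cells and 1.49% without cells of 10 or more globin UMIs. The adult level, E16.5 proximal over the E11.5 floor, was 9.94 on the log2 scale. It was 9.99 with all deposited barcodes, 9.87 with at least 5000 UMIs, 9.90 with at most 5% mitochondrial UMIs, 7.78 with cells thinned to 3000 UMIs, 4.49 without *Alas2*-positive cells and 4.15 without cells of 10 or more globin UMIs. As the E11.5 count was 0 throughout, these are lower bounds, and the last 2 show that the fold rests on the globin-rich cells. The embryonic share in *Alas2*-positive whole limb cells was 87.8% and became 97.3% for beta-type and 52.7% for alpha-type genes. Leaving out 1 whole limb library gave 86.5% to 89.2%, and -11.01 to -10.74 for the log2 ratio of the 7 summed genes in the sorted against the whole limb (main value -10.88). Without a filter on low counts edgeR called 6 of 7 globin genes, *Hbb-bs* having an adjusted p of 0.0997. DESeq2 called 7, with 0.0396 for *Hbb-bs*. Over all genes, edgeR called 8075 of 15341 tested, 5884 of 20379 without the filter, and DESeq2 called 5040 of 14570. The settings for *Lor* cells were chosen after seeing the data. The embryonic level thinned to 3000 UMIs had too few UMIs for a value. No paired analysis was possible because only the whole limb libraries carry replicate numbers. Below E14.5 a gene at 0 UMIs may have a level of up to 0.0661 to 0.0952 CPM (3 UMIs).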
